A study of Mus musculus with 8 samples.

Results

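The transcripts described here are the products of the mitochondrial genome in mouse bone marrow-derived macrophages (BMDMs), the macrophages that grow from bone marrow in the growth factor M-CSF. They were taken as every gene in the expression table whose symbol begins with mt-, which gave 37 of 55226 genes: 13 mRNAs, 2 ribosomal RNAs (rRNAs) and 22 transfer RNAs (tRNAs). The study measured poly(A) RNA in 4 groups of 2 samples, all from C57BL/6 mice: PtipcKO (cKO) cells with LPS at 100 ng/ml for 6 h, cKO cells at 0 h, PtipWT (WT) cells with LPS at 100 ng/ml for 6 h, and WT cells at 0 h. LPS is a component of the bacterial cell wall, and cKO stands for a conditional knockout of PTIP, the product of Paxip1, a protein known from complexes that methylate histone H3. The labels name neither the Cre driver nor the deleted exons, so it cannot be said in which cells of the mouse the gene was lost before culture. They number the replicates without saying whether a number marks a mouse, so a p-value here measures the spread between these samples, which may be partly technical.

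The mitochondrial genome is a small circle that is transcribed from both strands into long RNAs, by the polymerase POLRMT with TFAM and TFB2M. The tRNAs lie between most of the other genes, and cutting them out of the long RNAs releases the mRNAs and rRNAs. The mRNAs encode core subunits of complex I (mt-Nd1 to mt-Nd6 and mt-Nd4l), complex III (mt-Cytb), complex IV (mt-Co1 to mt-Co3) and the ATP synthase (mt-Atp6 and mt-Atp8). Every other subunit of these complexes is made from nuclear genes, so the respiratory chain needs both genomes. The rRNAs mt-Rnr1 and mt-Rnr2 form the small and the large subunit of the mitochondrial ribosome. Most mt mRNAs carry short poly(A) tails, while tRNAs carry none.

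Values are rlog values, a log2 scale on which low genes are drawn in toward their average, so differences of low transcripts are understated and depth is unknown. Of the 37 transcripts 9 were listed at 0 in every sample, all of them tRNAs (mt-Tf, mt-Tv, mt-Ti, mt-Ts1, mt-Td, mt-Tk, mt-Tg, mt-Th and mt-Ts2). Another 12 tRNAs had values but a mean rlog under 3, the minimum for testing. The highest of them was mt-Tn, the asparagine tRNA, at 2.76 and 2.42 in cKO with LPS, 2.62 and 2.81 in cKO at 0 h, 2.97 and 2.93 in WT with LPS, and 2.18 and 2.70 in WT at 0 h. The other 11 were mt-Tc (mean rlog -0.24), mt-Tl1, mt-Ta, mt-Te, mt-Tm, mt-Ty, mt-Tw, mt-Tt, mt-Tl2, mt-Tq and mt-Tr, and the last 3 sat at -2.31, the lowest value in the table. The 16 that were tested are the 13 mRNAs, both rRNAs and 1 tRNA, mt-Tp, the proline tRNA. The tRNAs passed or missed this limit by their level alone, so mt-Tp says nothing of tRNAs as a class.

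2 sets of sequences bear on what the values can mean, and all come from the GENCODE M21 transcripts of GRCm38, written 5′ to 3′ along the transcript. The first set is the pair of tRNAs with the highest values, which are 67 and 71 bases long. Capitals mark the anticodon, and both genes lie on the minus strand of the mitochondrial chromosome.
mt-Tp, chrM:15356-15422: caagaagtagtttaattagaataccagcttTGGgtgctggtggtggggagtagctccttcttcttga
mt-Tn, chrM:5089-5159: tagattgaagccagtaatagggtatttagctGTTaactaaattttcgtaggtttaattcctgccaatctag
The second set shows how close the nearest nuclear copies come. Nuclear genomes hold inserted pieces of mitochondrial DNA, and a stretch of mouse chromosome 1 carries 7 annotated pseudogenes in a row (chr1:24611535-24616197, minus strand) that match mt-Co1 to mt-Nd4. Only the first bases of each match are printed, and capitals mark the one base that differs over the whole match of 345 bases (mt-Nd3) or 483 bases (mt-Co1).
mt-Nd3, chrM:9459-9518: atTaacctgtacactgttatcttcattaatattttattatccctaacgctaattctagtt
Gm28438, chr1:24613060-24613119: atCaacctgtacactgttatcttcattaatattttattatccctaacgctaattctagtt
mt-Co1, chrM:6390-6450: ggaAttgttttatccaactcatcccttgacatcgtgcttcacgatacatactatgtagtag
Gm29216, chr1:24616128-24616188: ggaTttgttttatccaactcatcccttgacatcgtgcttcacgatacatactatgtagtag
The differences are T3C in mt-Nd3 and A1066T in mt-Co1, with the mitochondrial base first and positions counted from 1 at the first base of each mitochondrial transcript. Elsewhere in these matches a read cannot be placed by its letters.

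Of the copies 5 matched with no mismatch: Gm28439 over 876 bases of mt-Nd4, Gm10222 over 294 bases of mt-Nd4l, Gm28437 over 783 bases of mt-Co3, Gm10925 over 678 bases of mt-Atp6 and Gm28661 over 681 bases of mt-Co2. A match of at least 99% identity covered 99.9% of mt-Co3, 99.6% each of mt-Atp6 and mt-Co2, 99.1% of mt-Nd3, 99% of mt-Nd4l, 63.6% of mt-Nd4 and 31.3% of mt-Co1. No annotated transcript matched the other 6 mRNAs or the rRNAs at that identity over at least 50 bases. The unannotated bases between the pseudogenes were not searched. The end of mt-Atp8 (chrM:7766-7969) overlaps the start of mt-Atp6 (chrM:7927-8607), which Gm10925 matches with no mismatch. That shared end is shorter than 50 bases, so mt-Atp8 is not wholly free of a copy. The copies had high values of their own. Mean rlog was 11.91 for Gm29216, 10.76 for Gm10925, 9.83 for Gm28437, 8.99 for Gm28661, 7.06 for Gm28439, 4.17 for Gm10222 and 3.29 for Gm28438. A copy on chromosome 2, Gm13340, which matched mt-Co1 at 97.605%, had 6.18. Gm13339 had 2.41, and Gm13341, Gm4076, Gm11408, Gm43743, Gm11410 and Gm11512 lay between -2.31 and -0.30. How reads with several equally good places were counted is not given in the sources used here, so the split between a transcript and its copy is uncertain. The same holds for genes that overlap on the circle, mt-Atp8 with mt-Atp6, mt-Nd4l with mt-Nd4, and the end of mt-Nd5 (chrM:11742-13565, plus strand) with mt-Nd6 (chrM:13552-14070, minus strand), since the strand setting is not given either.

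Per length, most of the mitochondrial mRNAs and both rRNAs were among the highest genes in this poly(A) RNA. The RNA was selected on oligo-dT beads, so the ranks may differ from those in the cells. On the scale of mean rlog minus log2 of the length in kb, mt-Cytb (14.97) ranked 12th of 11393 genes of at least 200 bases, mt-Co1 (14.82) ranked 15th and mt-Rnr2 (13.99) ranked 27th. Next came mt-Nd1 (12.93), mt-Atp8 (11.76), mt-Nd4 (11.58), mt-Nd6 (11.54), mt-Atp6 (11.47), mt-Nd5 (11.34), mt-Rnr1 (11.19), mt-Nd2 (10.90), mt-Co3 (10.57) and mt-Co2 (10.28). The lowest were mt-Nd4l (6.78) and mt-Nd3 (5.49, rank 4755), which are both short and both matched over nearly their whole length on chromosome 1. mt-Co3 and mt-Co2, the next lowest, were matched over nearly their whole length too. So was mt-Atp6 (99.6%), which lay above mt-Nd5, mt-Rnr1 and mt-Nd2, transcripts with no such match. Whether the copies bear on these levels was not tested.

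**Figure D1:**
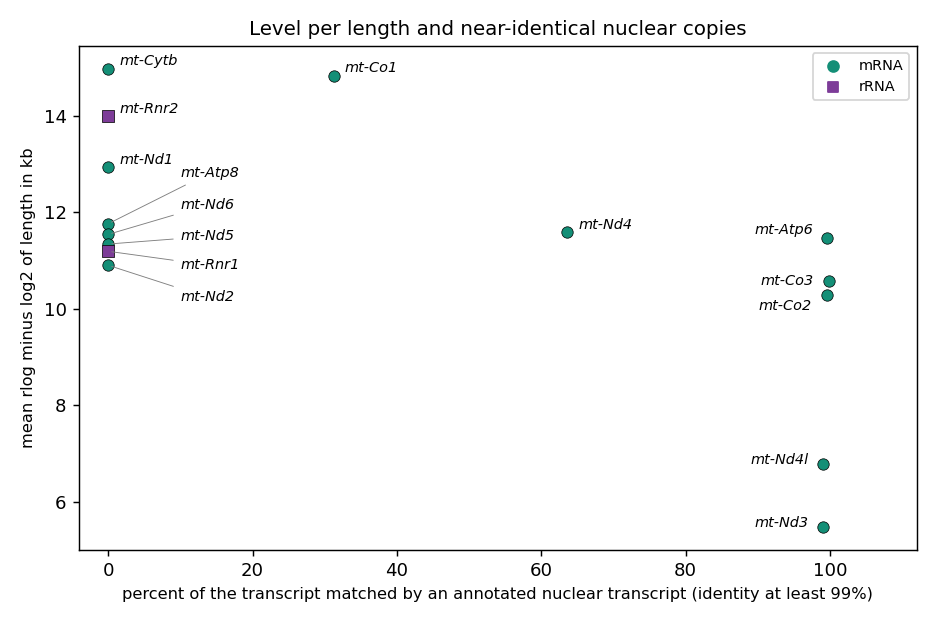
Level per length (mean rlog over 8 samples minus log2 of the length in kb, y axis) of the 13 mt mRNAs (circles) and 2 mt rRNAs (squares) against the percent of each transcript that an annotated nuclear transcript matches at 99% identity or more (x axis). The 5 transcripts matched over at least 99% include the 4 lowest levels, with mt-Nd3 at 5.49 and mt-Nd4l at 6.78. The other of the 5, mt-Atp6, is at 11.47. mt-Atp8 is drawn at 0%, since matches under 50 bases, such as that of its end, were not counted.

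The samples matched their labels as far as they can be checked. Paxip1 rlog was 2.54 and 2.63 in cKO with LPS, 2.54 and 2.48 in cKO at 0 h, 3.82 and 4.08 in WT with LPS, and 4.50 and 4.50 in WT at 0 h. It was lower in cKO than in WT at 0 h by a log2 difference of -1.99 (SE 0.182, limma adjusted p = 0.00686) and after LPS by -1.37 (SE 0.182, adjusted p = 0.0156). All 8 macrophage markers checked (Adgre1, Csf1r, Itgam, Cd68, Lyz2, Mertk, Fcgr1 and Cd14) passed the filter. The 2 samples of a group correlated at r of 0.987 to 0.992 over the tested genes. One library was low for the mitochondrial transcripts: WT at 0 h replicate 1 had the lowest value of all 8 samples for 14 of the 16. The share over all tested genes was not computed, so the count does not show that the library is unusual for these transcripts alone. The WT results that rest on this library are given with and without it.

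After LPS in cKO cells no mitochondrial transcript passed the threshold. Of the 16, 0 were called higher and 0 lower at a limma adjusted p of 0.05 (Benjamini-Hochberg), where 19.6% of all tested genes were called higher and 17.5% lower. The median log2 difference was 0.08, against -0.02 over all tested genes, and 10 were positive, a count that was 6 after quantile normalization of the samples. In bulk RNA a change in RNA per cell and a change in the share of cells that make it cannot be told apart.

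Among the mRNAs of complex IV, mt-Co3 had the clearest difference in cKO. Its values were 10.39 and 10.64 with LPS, against 9.91 and 10.00 at 0 h. The log2 difference was 0.56 (SE 0.231, unadjusted p = 0.0403, limma adjusted p = 0.0906), and the authors' deposited table gives 0.62 with an adjusted p of 0.0184. It is the only 1 of the 16 that table calls higher in cKO, where it calls 15.9% of the tested genes higher, and it calls 0 lower, where it calls 11.5%. Its copy Gm28437 had 0.53 (adjusted p = 0.0919). For mt-Co1, the catalytic core of complex IV, values were 15.58 and 15.57 with LPS, against 15.09 and 15.45 at 0 h (difference 0.30, adjusted p = 0.339). For mt-Co2, which takes up electrons from cytochrome c, they were 9.76 and 9.89 with LPS, against 9.45 and 9.64 at 0 h (0.28, adjusted p = 0.337). For all 3 of these mRNAs both LPS samples lay above both 0 h samples in cKO, as for 35.6% of all tested genes. Of the 3 only mt-Co3 passed the test in any alternative. Its limma adjusted p was 0.0158 with only the groups compared. It was 0.0484 under a replicate block by number and 0.0445 under a block by genotype and number. With 1 cKO sample left out the mt-Co3 difference was 0.44 to 0.68, and under quantile normalization it was 0.22 (adjusted p = 0.531).

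The complex I mRNAs did not share one direction in cKO. mt-Nd6, the only mRNA read from the other strand, had 10.33 and 10.41 with LPS, against 10.58 and 10.60 at 0 h, a log2 difference of -0.22 (SE 0.197, limma adjusted p = 0.408). mt-Nd2 had 10.77 and 10.78 with LPS, against 10.90 and 11.03 at 0 h (-0.20, adjusted p = 0.559). These were the only 2 of 16 whose values lay wholly lower with LPS, where 36.9% of all tested genes did so, and 6 lay wholly higher, where 35.6% did. mt-Nd4 had 12.07 and 12.17 with LPS, against 11.80 and 12.02 at 0 h (0.21, adjusted p = 0.532), and mt-Nd4l had 5.26 and 5.01, against 4.93 and 4.54 (0.40, adjusted p = 0.347). mt-Nd1 (0.07), mt-Nd5 (-0.01) and mt-Nd3 (-0.06) had overlapping groups.

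The remaining transcripts gave small differences in cKO, apart from the tRNA. mt-Tp had 5.87 and 5.67 with LPS, against 5.31 and 4.71 at 0 h, a log2 difference of 0.76 (SE 0.31, unadjusted p = 0.039, limma adjusted p = 0.0884). For mt-Cytb, the core of complex III, the difference was 0.13, for mt-Atp6, the proton channel subunit of the ATP synthase, 0.10, and for mt-Atp8 0.03. Both rRNAs were below 0 and overlapped, mt-Rnr1 at -0.11 and mt-Rnr2 at -0.13. At an unadjusted p under 0.05, 2 of 16 (mt-Tp and mt-Co3) were higher and 0 lower, where 24.1% of all tested genes were higher and 22.7% lower at that threshold.

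In WT cells 12 of 16 mitochondrial transcripts were called higher with LPS and 0 lower, where 22.5% of all tested genes were called higher and 19.7% lower. The called ones were both rRNAs and 10 of 13 mRNAs. At an unadjusted p under 0.05, 13 were higher and 0 lower, where 26.1% and 24.4% of all tested genes were. Log2 differences ran between 0.57 and 0.92 for all 16, with a median of 0.81 against -0.01 over all tested genes. All 16 were positive, and mt-Cytb and mt-Nd1 turned to -0.10 and -0.06 under quantile normalization. For 14 of 16 both LPS samples lay above both 0 h samples, which 35.7% of all tested genes did, and for 0 below, which 35.6% did.

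This count depends on the libraries and the scaling. It was 3 without WT at 0 h replicate 1, the low library, and 14 without WT at 0 h replicate 2. It was 6 without WT LPS replicate 1, 5 without WT LPS replicate 2, 2 with no filter on low values and 1 under quantile normalization. Over all genes, calls in either direction were 4871 of 11543 in the main fit. They were 4272 of 28499 with no filter and 4991 of 11543 under quantile normalization. Without WT at 0 h replicate 1 or either WT LPS replicate fewer of all genes were called too. The count of these transcripts fell by a larger share each time. The mean rlog of the 13 mRNAs was 11.09 and 11.14 with LPS, against 10.00 and 10.70 at 0 h in WT. The difference of the means was 0.76 with both 0 h samples and 0.41 without replicate 1.

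Both rRNAs were called higher in WT. The rRNA mt-Rnr2 had 15.37 and 15.31 with LPS, against 14.18 and 14.66 at 0 h (log2 difference 0.92, SE 0.221, limma adjusted p = 0.0105). mt-Rnr1 had 11.68 and 11.74 with LPS, against 10.62 and 11.17 at 0 h (0.81, adjusted p = 0.0179). The groups did not overlap for either rRNA. Without WT at 0 h replicate 1 neither was called, mt-Rnr2 at 0.68 (adjusted p = 0.0638) and mt-Rnr1 at 0.54 (adjusted p = 0.116), and under quantile normalization mt-Rnr2 was at 0.11 and mt-Rnr1 at 0.21.

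All 3 mitochondrial mRNAs of complex IV were called higher in WT, where 22.5% of all tested genes were. mt-Co1 had 15.87 and 15.94 with LPS, against 14.78 and 15.31 at 0 h (log2 difference 0.86, limma adjusted p = 0.0167). mt-Co2 had 10.24 and 10.22, against 8.96 and 9.68 (0.91, adjusted p = 0.00911), and mt-Co3 had 10.64 and 10.64, against 9.38 and 10.19 (0.85, adjusted p = 0.0176). Without WT at 0 h replicate 1 mt-Co2 stayed called (0.55, adjusted p = 0.0314), while mt-Co1 (0.60, adjusted p = 0.0923) and mt-Co3 (0.45, adjusted p = 0.067) did not. Under quantile normalization none of the 3 was called, with 0.30 for mt-Co1, 0.57 for mt-Co2 and 0.43 for mt-Co3. Both ATP synthase mRNAs were called higher as well. mt-Atp6 had 11.33 and 11.38 with LPS, against 10.30 and 10.85 at 0 h (0.78, adjusted p = 0.00783). mt-Atp8 had 10.04 and 9.99, against 8.90 and 9.52 (0.80, adjusted p = 0.0101). Without WT at 0 h replicate 1 both stayed called, mt-Atp6 at 0.51 (adjusted p = 0.0358) and mt-Atp8 at 0.49 (adjusted p = 0.0436).

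Of the 7 complex I mRNAs 5 were called higher in WT, where 22.5% of all tested genes were, and none of the 5 without WT at 0 h replicate 1. mt-Nd4 had 12.41 and 12.56 with LPS, against 11.23 and 12.06 at 0 h (log2 difference 0.84, limma adjusted p = 0.0225). mt-Nd5 had 12.69 and 12.78, against 11.58 and 12.28 (0.81, adjusted p = 0.0273), and mt-Nd1 had 13.29 and 13.28, against 12.20 and 12.92 (0.73, adjusted p = 0.0272). mt-Nd4l (0.89, adjusted p = 0.0487) and mt-Nd6 (0.71, adjusted p = 0.0192) were the others called. Without WT at 0 h replicate 1 the differences were 0.43 for mt-Nd4, 0.46 for mt-Nd5, 0.36 for mt-Nd1, 0.40 for mt-Nd4l and 0.39 for mt-Nd6, with adjusted p-values of 0.0917 (mt-Nd6) to 0.287 (mt-Nd4l). The gene of mt-Nd6 lies on the minus strand and those of the other 4 on the plus strand. Not called were mt-Nd2 (0.57, adjusted p = 0.0892), mt-Nd3 (0.59, adjusted p = 0.184), the complex III mRNA mt-Cytb (0.57, adjusted p = 0.169) and mt-Tp (0.61, adjusted p = 0.147). The authors' deposited table calls 9 of the 16 higher in WT at its own adjusted p of 0.05, where it calls 16.1% of the tested genes higher, and 0 lower, where it calls 12.1%. The list is led by mt-Rnr2 at 0.94 (adjusted p = 0.00209).

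Most of the nuclear copies were also higher with LPS in WT. Of the 8 pseudogene copies tested, 6 were called higher with LPS: Gm29216 (log2 difference 0.94, limma adjusted p = 0.00408), Gm28661 (0.94, adjusted p = 0.00695), Gm28437 (0.87, adjusted p = 0.0133), Gm10925 (0.82, adjusted p = 0.0135), Gm28439 (0.78, adjusted p = 0.0277) and Gm13340 (0.56, adjusted p = 0.0369). Gm28438 (0.44) and Gm10222 (0.30) did not pass. In cKO 0 of the 8 were called, with a median of 0.23. Of all tested genes 22.5% were called higher and 19.7% lower in WT, and 19.6% and 17.5% in cKO. The split of reads between a transcript and its copy is uncertain, so the copies are not separate evidence of a response. Adding each near-identical copy to its transcript before the fit left 11 of 16 called in WT and 0 in cKO. The 6 mRNAs with no such copy include mt-Atp8, whose end lies within the match of Gm10925. Their mean difference with LPS was -0.03 in cKO and 0.70 in WT, beside 0.12 and 0.76 for all 13. For cKO against WT after LPS it was -0.56, beside -0.46. Cep295, a coding gene with a short match, had -0.19 (adjusted p = 0.481).

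**Figure D2:**
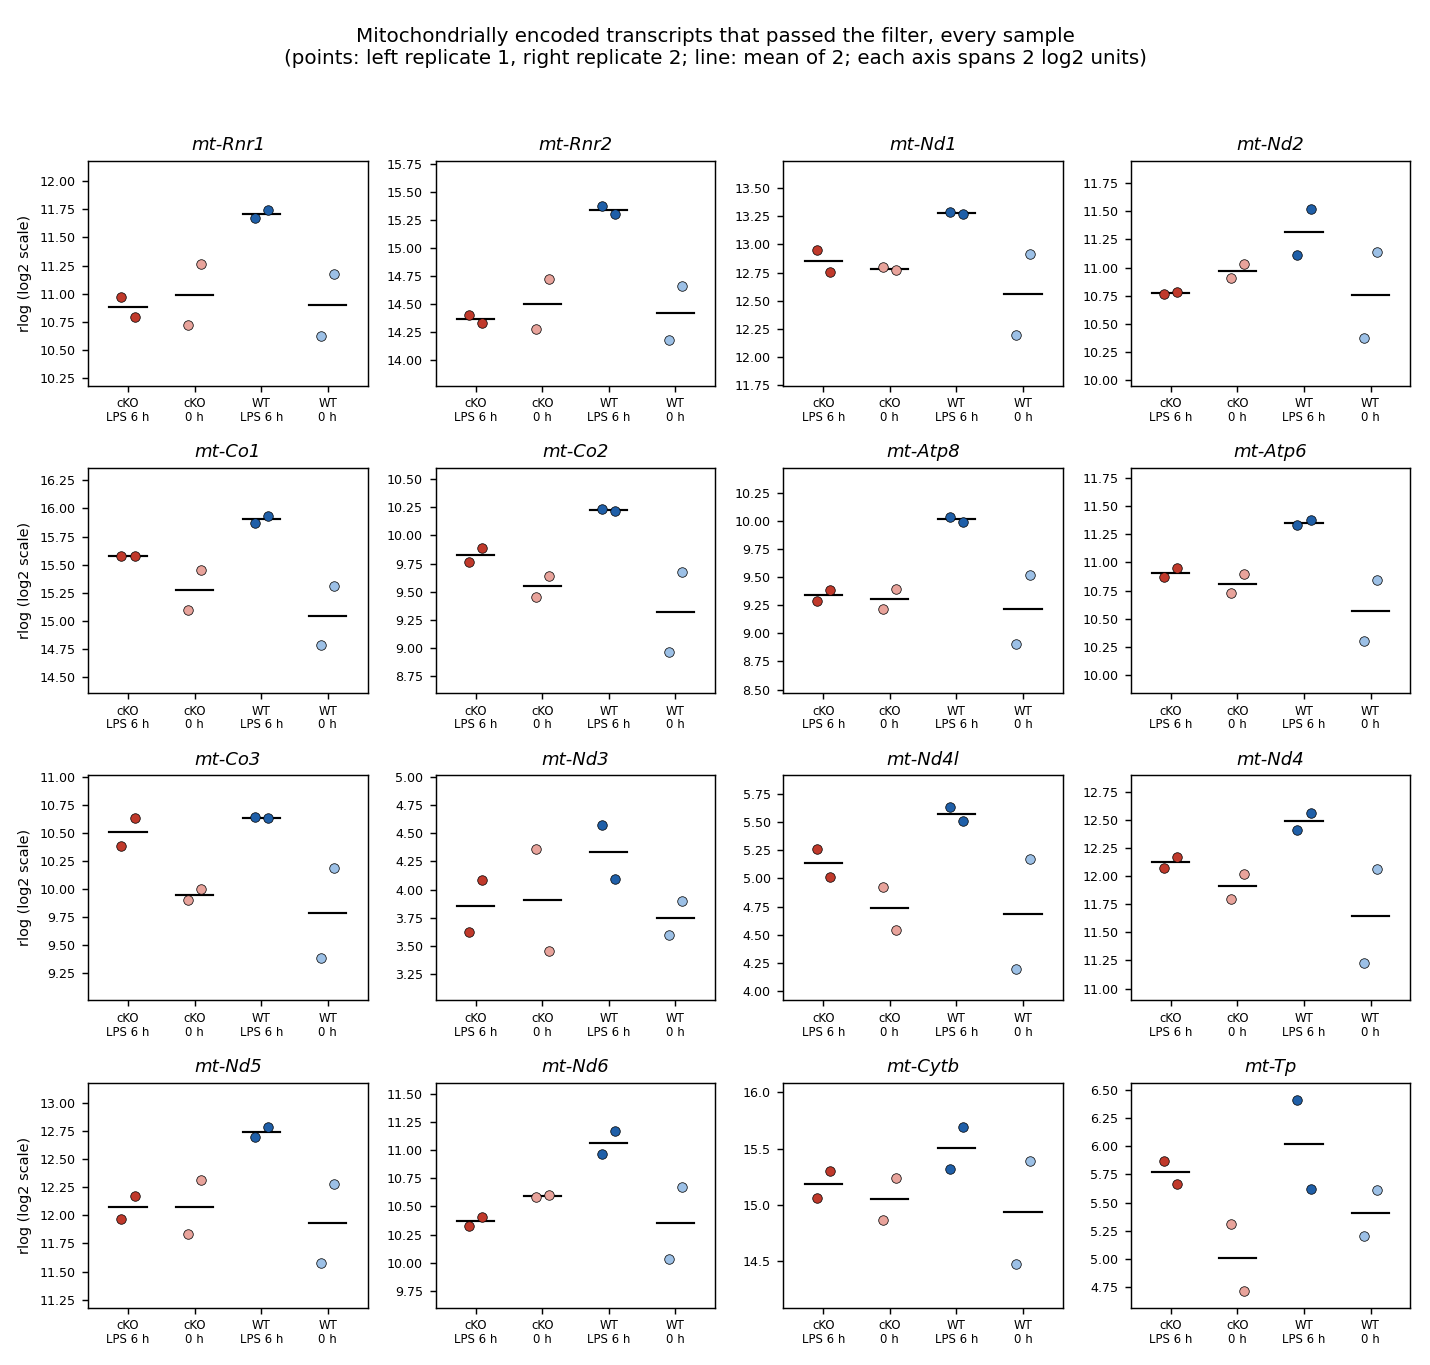
rlog value (log2 scale, y axis) of each of the 16 tested transcripts in every sample of the 4 groups (x axis), with points for replicates 1 and 2 and a line at their mean, in panels that each span 2 log2 units. WT with LPS is highest in both samples for 12 of 16 transcripts, and the left WT 0 h point (replicate 1) is the lowest of the 8 for 14 of 16. The shares over all tested genes were not computed for these counts.

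At 0 h no mitochondrial transcript separated the genotypes. In cKO against WT 0 of 16 were called in either direction at a limma adjusted p of 0.05, where 0.052% of all tested genes were called higher and 0.199% lower. At an unadjusted p under 0.05 the count was also 0, where 4.86% were higher and 6.02% lower. The groups overlapped for all 16, where 19.3% of all tested genes lay wholly higher and 21.9% wholly lower. The authors' deposited table calls 0 of the 16 as well, where it calls 0.624% of the tested genes higher and 0.901% lower. Log2 differences ran between -0.40 (mt-Tp) and 0.27 (mt-Nd4) with a median of 0.17. The mean of the 13 mRNAs was 10.53 ± 0.05 in cKO and 10.35 ± 0.49 in WT (SD, n = 2 each). Without WT replicate 1 the difference of 0.18 became -0.17. The 95% intervals were wide, for example -0.43 to 0.58 for mt-Rnr2 and -0.17 to 0.65 for mt-Atp6, and differences of those sizes are not excluded.

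After LPS the cKO samples lay below the WT samples for nearly every mitochondrial transcript, without a call. Of the 16, 0 passed the limma adjusted p of 0.05 in either direction, where 2.46% of all tested genes were called lower and 1.51% higher. All 16 log2 differences were negative, with a median of -0.44 against -0.03 over all tested genes, and under quantile normalization mt-Co1, mt-Co3 and mt-Cytb turned positive. Both cKO samples lay below both WT samples for 15 of 16, all but mt-Tp, where 29.7% of all tested genes did so, and 0 lay wholly above, where 23.3% did. At an unadjusted p under 0.05, 7 of 16 were lower and 0 higher, where 12.7% and 8.85% of all tested genes were. This comparison and the WT response share the 2 WT LPS samples, so their values are not independent.

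On the deposited scaling the rRNAs had the largest differences between the genotypes after LPS, while under quantile normalization mt-Atp8 had (-0.53, beside -0.52 for mt-Rnr1). mt-Rnr2 was at 14.41 and 14.33 in cKO with LPS, against 15.37 and 15.31 in WT with LPS, and the log2 difference was -0.97 (SE 0.221, limma adjusted p = 0.0512). Its adjusted p was 0.0408 with the robust fit and 0.0234 with only the groups compared, but 0.157 with no filter on low values. It was 0.198 and 0.282 without cKO LPS replicate 1 or 2, and 0.165 and 0.0964 without WT LPS replicate 1 or 2. Quantile normalization brought the difference to -0.46 (adjusted p = 0.266). mt-Rnr1 had 10.97 and 10.79 in cKO, against 11.68 and 11.74 in WT (-0.83, SE 0.221, adjusted p = 0.0762). The authors' deposited table calls both lower, mt-Rnr2 at -1.001 (adjusted p = 2.91e-05) and mt-Rnr1 at -0.85 (adjusted p = 0.00244).

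Among the mRNAs after LPS, mt-Nd6 had 10.33 and 10.41 in cKO, against 10.96 and 11.17 in WT (log2 difference -0.70, SE 0.197, limma adjusted p = 0.0852). mt-Atp8 had 9.29 and 9.39, against 10.04 and 9.99 (-0.68, SE 0.192, adjusted p = 0.0858), and mt-Nd5 had 11.97 and 12.18, against 12.69 and 12.78 (-0.67, SE 0.244, adjusted p = 0.157). None of these mRNAs had a near-identical annotated match of at least 50 bases, though the end of mt-Atp8 lies within the match of Gm10925. The authors' deposited table calls all 3 lower in cKO (mt-Nd6 -0.72, mt-Atp8 -0.69 and mt-Nd5 -0.67). With the rRNAs it calls 5 of the 16 lower and 0 higher, where it calls 3.02% of the tested genes lower and 2.56% higher. mt-Nd2 was at -0.55 (unadjusted p = 0.0497) and mt-Atp6 at -0.44 (unadjusted p = 0.0351).

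The other mRNAs had smaller differences between the genotypes after LPS. mt-Co3 had 10.39 and 10.64 in cKO, against 10.64 and 10.64 in WT, a log2 difference of -0.13 (limma adjusted p = 0.797). mt-Co1 was at -0.33, mt-Cytb at -0.33 and mt-Co2 at -0.40, and none had an unadjusted p under 0.05. mt-Nd4 was at -0.37, mt-Nd1 at -0.43, mt-Nd4l at -0.44 and mt-Nd3 at -0.48. The 8 tested copies ran between -0.70 (Gm13340) and 0.06 (Gm29216, the copy of the end of mt-Co1), with a median of -0.39. Gm28437, the copy of mt-Co3, was at -0.07. Of the 8 copies 0 were called, where 2.46% of all tested genes were called lower and 1.51% higher.

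**Figure D3:**
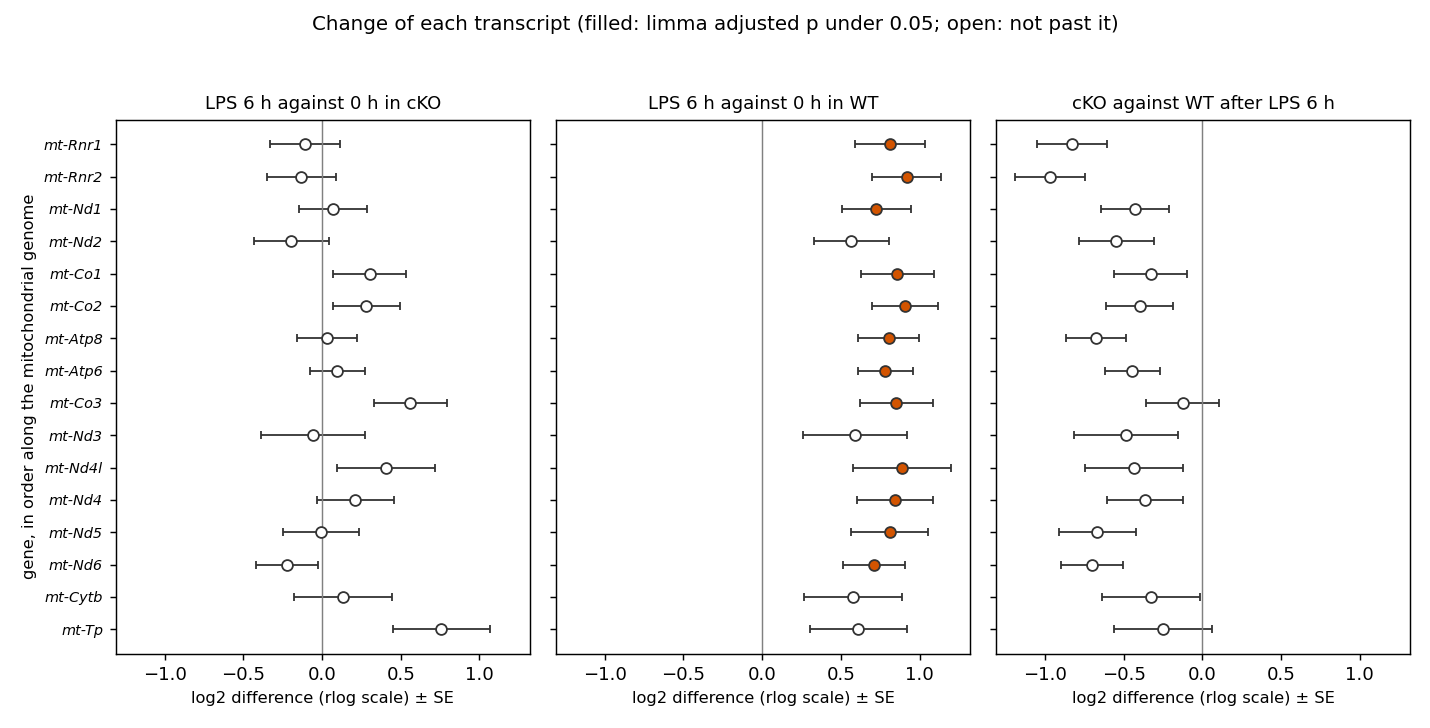
Log2 difference on the rlog scale with its standard error (x axis) for each of the 16 tested transcripts in the order of their genes on the mitochondrial chromosome (y axis), for LPS in cKO, LPS in WT and cKO against WT after LPS. Filled points, limma adjusted p under 0.05, appear for 12 transcripts in WT and for 0 in the other panels; under quantile normalization mt-Cytb and mt-Nd1 turn negative in WT, 6 of the 16 change sign in cKO, and mt-Co1, mt-Co3 and mt-Cytb turn positive in the last panel.

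A call in WT and none in cKO does not show that the responses differ, so the difference of the LPS effects was tested itself. In that interaction 0 of 16 transcripts passed the limma adjusted p of 0.05, and 0% of all tested genes did. The estimates were negative for 15 of 16 and ran between -1.05 (mt-Rnr2, SE 0.312, adjusted p = 0.685) and 0.15 (mt-Tp), with a median of -0.65 against -0.02 over all tested genes; under quantile normalization mt-Cytb turned positive. At an unadjusted p under 0.05, 6 of 16 were lower and 0 higher (mt-Rnr1, mt-Rnr2, mt-Nd5, mt-Nd6, mt-Atp6 and mt-Atp8), where 3.89% of all tested genes were lower and 2.62% higher. Without WT at 0 h replicate 1 the interaction of the mRNA mean was -0.29 in place of -0.64.

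The levels were also set against one another within each sample, without a test. The mean of the 13 mRNAs was 10.66 ± 0.07 in cKO with LPS, 10.53 ± 0.05 in cKO at 0 h, 11.11 ± 0.04 in WT with LPS and 10.35 ± 0.49 in WT at 0 h (SD, n = 2 each). The mean of the 2 rRNAs minus that of the mRNAs was 2.08 and 1.86 in cKO with LPS, 2.0 and 2.43 in cKO at 0 h, 2.44 and 2.39 in WT with LPS, and 2.40 and 2.22 in WT at 0 h. After LPS both cKO samples lay below both WT samples on this measure, with a difference of -0.44, and at 0 h the groups overlapped (-0.10). This measure cancels any factor common to all transcripts of a sample. It was -0.27 after LPS under quantile normalization, which acts differently on genes of different rank.

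Measured against the mRNA mean of the same sample, mt-Rnr2 was lower in cKO than in WT after LPS by a log2 difference of -0.51 and mt-Rnr1 by -0.37. mt-Nd6 (-0.24), mt-Atp8 (-0.22) and mt-Nd5 (-0.21) followed. mt-Co3 was higher than the mean by 0.33, and mt-Co1 and mt-Cytb each by 0.13. With LPS against 0 h in cKO, mt-Co3 differed from the mean by 0.44, mt-Nd6 by -0.35 and mt-Nd2 by -0.32. Over the 8 samples the 15 rRNAs and mRNAs had pairwise Pearson correlations between 0.293 and 0.987 with a median of 0.859, a description over samples that share scaling and treatment.

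**Figure D4:**
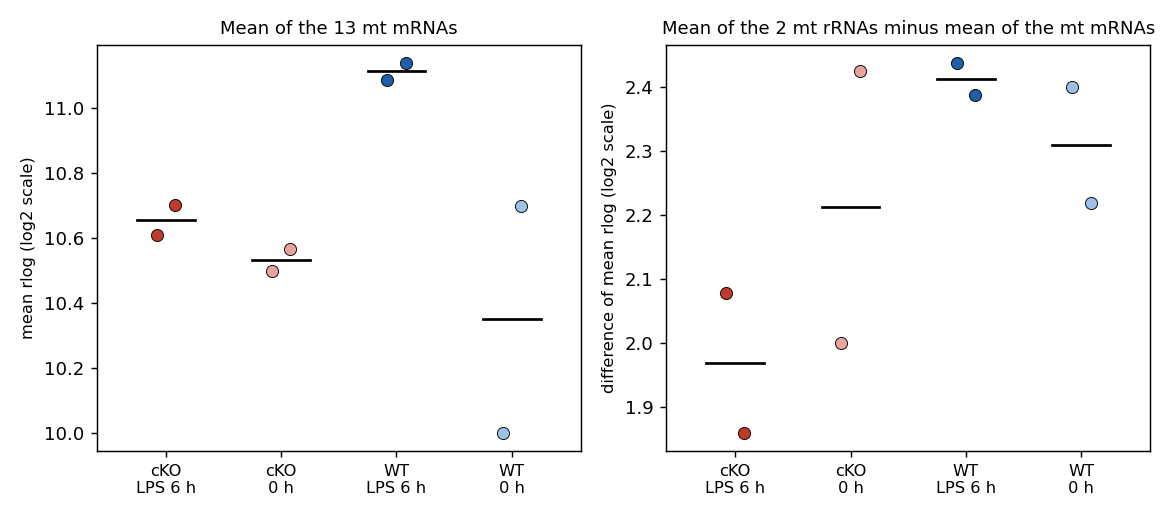
Left, mean rlog of the 13 mt mRNAs in each sample; right, mean rlog of the 2 mt rRNAs minus that of the mRNAs; points are the samples of the 4 groups (x axis) and lines the means of 2, on log2 scales that do not start at 0. The WT LPS samples (11.09 and 11.14) lie highest on the left, and on the right the cKO LPS samples (2.08 and 1.86) lie below the WT LPS samples (2.44 and 2.39); under quantile normalization the LPS difference of the mRNA mean in cKO turns to -0.17.

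The nuclear genes that act on mitochondrial RNA changed in both directions with LPS. Of 40 tested genes for transcription of mitochondrial DNA and RNA processing, 3 were higher and 6 lower in cKO, where 19.6% and 17.5% of all tested genes were. In WT 8 were higher and 9 lower, where 22.5% and 19.7% were, so the counts lie below or near those of all genes. Pnpt1, which degrades mitochondrial RNA, rose by a log2 difference of 1.30 in cKO (limma adjusted p = 0.000115) and 1.61 in WT (adjusted p = 3.05e-05). Tfam, which packs mitochondrial DNA and opens its promoters, rose by 0.53 in cKO and 0.70 in WT, and Trmt61b, which methylates mitochondrial RNA, by 0.72 and 0.83. Tfb2m, the initiation factor, fell by 0.85 in cKO and 0.88 in WT, and Hsd17b10, a part of mitochondrial RNase P, by 0.80 and 0.92. Mrm2, an rRNA methyltransferase, fell by 0.80 and 0.52, and Rpusd3, linked to rRNA modification, by 0.52 and 0.68. Trmt10c, another part of mitochondrial RNase P, fell by 0.63 in cKO and had -0.39 in WT (adjusted p = 0.0653). Mrm1, an rRNA methyltransferase, fell by 1.03 in WT and had -0.42 in cKO (adjusted p = 0.146).

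The polymerase and the factors that hold the mRNAs stable gave less clear values. Polrmt was at 0.55 with LPS in cKO (limma adjusted p = 0.113) and -0.43 in WT (adjusted p = 0.188). Slirp, the partner of Lrpprc in keeping mt mRNAs stable, rose in WT (0.92, adjusted p = 0.0167) and had 0.32 in cKO (adjusted p = 0.348), and Tefm, the elongation factor, rose in WT (0.61, adjusted p = 0.0128) and had 0.33 in cKO (adjusted p = 0.126). Lrpprc had -0.11 in cKO and -0.43 in WT, and Tfb1m, an rRNA methyltransferase, 0.15 and 0.20. Between the genotypes 0 of the 40 were called at 0 h, where 0.052% of all tested genes were higher and 0.199% lower. After LPS 1 was lower in cKO, Pnpt1 (-0.59, limma adjusted p = 0.037), and 0 higher, where 2.46% and 1.51% were. These counts lie near the shares of all genes. The interaction called 0 of the 40 and 0% of all tested genes.

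Genes for keeping and copying mitochondrial DNA also changed in both directions. Of 19 tested, 5 were higher and 6 lower in cKO, where 19.6% and 17.5% of all tested genes were, and 6 higher and 6 lower in WT, where 22.5% and 19.7% were. Their median log2 difference was -0.28 in cKO and -0.30 in WT. Cmpk2, a mitochondrial nucleotide kinase known as induced by interferon, rose by 4.90 in cKO and 5.08 in WT on the log2 scale, and Samhd1, a dNTP hydrolase, by 2.1 and 2.57. Top3a rose by 1.19 and 0.64, and Rnaseh1 by 0.73 and 0.51. Mpv17 fell by 1.13 in cKO and 1.25 in WT, and Mgme1 by 0.51 and 1.04. Slc25a36, a pyrimidine nucleotide carrier, fell by 0.69 and 0.90, and the nuclease gene Exog by 0.83 in both. Dna2 fell in cKO by 1.19 and had -0.65 in WT (limma adjusted p = 0.052). Twnk, the replicative helicase, fell in WT by 1.02 and had -0.39 in cKO (adjusted p = 0.344), and Primpol rose in WT by 0.64 and had 0.08 in cKO (adjusted p = 0.78). Among 10 regulators of mitochondrial biogenesis, Ppargc1b fell by 1.47 in cKO and 1.5 in WT and Myc by 0.89 and 0.98, while Gabpb1 rose by 0.96 and 1.18 and Gabpa by 0.79 and 0.68. Pprc1 rose in cKO by 1.02 and had -0.27 in WT (adjusted p = 0.428). Of 30 tested genes that modify or charge mitochondrial tRNAs 0 rose, and 4 fell in cKO (Osgepl1, Nars2, Fars2 and Rars2) and 11 in WT, led by Nars2, Cars2, Mars2 and Vars2. Of all tested genes 17.5% were lower in cKO and 19.7% in WT, and 19.6% and 22.5% were higher. Nars2, which charges mt-Tn, fell by 0.90 in cKO and 1.71 in WT and was higher in cKO than in WT after LPS by 0.82 (adjusted p = 0.0396).

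The nuclear genes for subunits of the respiratory chain and the ATP synthase mostly did not pass the test with LPS. Of 46 tested, which include only the 7 nuclear core subunits of complex I, 1 was higher and 8 were lower with LPS in cKO, where 19.6% and 17.5% of all tested genes were. In WT 2 were higher and 5 lower, where 22.5% and 19.7% were. Their median log2 difference was -0.15 in cKO and -0.06 in WT, while the 13 mitochondrial mRNAs had medians of 0.10 and 0.80. Uqcrfs1, the iron-sulfur subunit of complex III, rose by 0.35 in cKO and 0.67 in WT, and Cox7a2 of complex IV rose in WT by 0.42. Sdhd of complex II, which has no mitochondrially encoded subunit, fell by 0.91 in cKO and 0.79 in WT and was lower in cKO than in WT after LPS (-0.67, limma adjusted p = 0.0218). In complex I Ndufs7 fell by 0.41 in cKO and 0.72 in WT, and Ndufv2 fell by 0.46 in cKO and Ndufs8 by 0.46 in WT. Sdhb fell by 0.45 and 0.51 and Atp5g1 by 0.35 and 0.36, and Cox7c, Atp5h and Uqcr10 fell in cKO by 0.56, 0.42 and 0.32. Between the genotypes the 46 had a median of 0.02 at 0 h and -0.08 after LPS.

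RNAs that lack a poly(A) tail or stay in the nucleus were checked beside the mitochondrial rRNAs. Only 4 of 16 listed passed the filter, Rn7sk, Malat1, Neat1 and Hist1h4i. In cKO against WT after LPS they had log2 differences of -0.69, -0.44, -0.03 and -0.77 in that order. Of the 4, 0 were called, where 1.51% of all tested genes were called higher and 2.46% lower. The summed level of the list on the linear scale of 2 to the power of rlog was 18850 to 21590 in cKO with LPS and 26410 to 27230 in WT with LPS. At 0 h it was 22650 to 29950 in cKO and 21240 to 22940 in WT. Malat1 alone makes up most of this sum, so the sum does not speak for the list. Its rlog values were 14.09 and 14.29 in cKO with LPS, against 14.61 and 14.64 in WT with LPS (limma adjusted p = 0.241). With LPS in cKO Rn7sk fell by 0.83 (limma adjusted p = 0.0189), and in WT 0 of the 4 were called. Their part in the values of the mitochondrial transcripts was not tested.

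Of the 8 macrophage markers 0 were called between the genotypes at 0 h, where 0.052% of all tested genes were called higher and 0.199% lower. After LPS 2 were lower in cKO, Itgam (-1.11) and Mertk (-1.10), and 0 higher, where 2.46% and 1.51% were. Only 1 of the 8 differences was positive at each time. Their medians were -0.495 at 0 h and -0.523 after LPS, against -0.013 and -0.033 over all tested genes. The sum of the 8 macrophage markers on that linear scale was 387100 to 397500 in cKO with LPS and 732500 to 758500 in WT with LPS, and 350800 to 434500 in cKO at 0 h and 617300 to 653400 in WT at 0 h. Most of that sum is Lyz2, the lysozyme gene, with rlog values of 18.16 and 18.20 in cKO with LPS, 18.13 and 18.46 in cKO at 0 h, 19.19 and 19.31 in WT with LPS, and 18.996 and 19.12 in WT at 0 h. Cd68 had differences in the other direction, 0.23 at 0 h and 0.17 after LPS, neither called. Of 8 neutrophil markers 2 passed the filter (S100a8 and Camp), with Retnlg at 0 everywhere. Their list summed to 368.7 to 426.4 in cKO with LPS and 186.8 to 266.6 in WT with LPS. At 0 h it summed to 243.2 to 256.8 in cKO and 109.2 to 164.4 in WT. S100a8 makes up most of it, with 8.23 and 8.35 in cKO with LPS, against 7.23 and 7.60 in WT with LPS. Ltf (1.16 and 1.78, against 1.75 and 2.16) and S100a9 (1.04 and 1.57, against 1.07 and 2.56), both below the filter, were not higher in cKO with LPS. Of the T cell markers only Lck passed, with Cd3e, Cd3d, Cd3g and Cd8a below 0, and of the B cell markers only Cd79b. Of 4 dendritic cell markers 3 passed, and of 4 mast cell and basophil markers 3, with Mcpt4 at 0. None of the 4 fibroblast markers passed. Between the genotypes 0 markers of these other cell types were called at either time. With LPS in WT Lck (3.15), Camp (1.19), Xcr1 (1.15), Cpa3 (1.07), Zbtb46 (0.90) and S100a8 (0.65) were called higher and Cd79b (-1.39) lower. With LPS in cKO Lck (2.99), Camp (1.84), Xcr1 (0.90) and Zbtb46 (0.81) were higher and Cd79b (-1.29) lower. The part of cell composition in the mitochondrial values was not tested.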

How the data were processed

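The authors deposited 1 table of 55226 genes with rlog values, a log2 scale, for 8 samples, and with their own log2 fold changes and p-values for 4 comparisons, per the file headers. Tools listed in the submitters' processing notes are HISAT2 2.1.0, featureCounts, CASAVA and DESeq2, with the build GRCm38 and no settings. Per the labels' protocols, RNA was selected on oligo-dT beads and copied with random primers, with 15 PCR cycles. Read counts were not used here, so depth and counting error are unknown.

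The filter was a mean rlog of 3 or more over the samples, which 11543 genes passed. A model of 4 group means over all 8 samples was fitted with limma 3.58.1 in R 4.3.3 (eBayes with trend; 4 residual and 4.4 prior degrees of freedom), with Benjamini-Hochberg adjustment over all tested genes and a threshold of 0.05. The code was tested on simulated data. Copies were sought with blastn 2.17.0 (at least 90% identity over 50 bases) in GENCODE M21 transcripts of GRCm38. The mitochondrial set and all gene lists were chosen with earlier results of these data known. Every mt- gene with a value is named. From the lists, genes past the threshold are named, up to 4 of the largest rises and falls per comparison, with 8 transcription genes and the nuclear copies named regardless. Alternatives covered filters, the variance model, scaling, the replicate block, the samples fitted and each sample left out, and, chosen after seeing the data, copies added to their transcripts and mRNAs without copies.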

Additional observations from a re-analysis of the deposited data

How the results depend on the processing

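Every transcript called under any alternative was higher with LPS or, after LPS, lower in cKO. For LPS in cKO the count of 0 became 1 under the replicate block by number, under the replicate block by genotype and number, and with only the groups compared, and was 0 to 1 when 1 sample was left out. For LPS in WT the count of 12 became 2 with no filter, 1 under quantile normalization and 7 with only the groups compared, and was 3 to 14 with 1 sample left out. It was 12 and 14 under the 2 replicate blocks. Calls over all genes for LPS in WT were 4871 of 11543 in the main fit and 4272 of 28499 with no filter. They were 4991 of 11543 under quantile normalization, and 5176 and 5345 under the 2 replicate blocks. At 0 h cKO against WT called 0 throughout. After LPS the count of 0 became 1 with a minimum mean rlog of 5, 1 with the robust fit, 1 with samples centred on their medians, 3 under the replicate block by number and 5 with only the groups compared, and was 0 to 3 with 1 sample left out. The interaction called 0 throughout. Same-numbered samples deviated together at r of 0.311 in cKO and 0.222 in WT over genes, and at -0.0418 to 0.2 across genotypes; the labels do not say what a number marks, so the numbers are not taken as pairs.

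The mRNA mean difference under quantile normalization was -0.173 for LPS in cKO and 0.308 for LPS in WT. With 1 sample left out it was 0.0774 to 0.17 for LPS in cKO, 0.414 to 1.11 for LPS in WT, -0.166 to 0.532 for cKO against WT at 0 h, -0.502 to -0.409 after LPS and -0.987 to -0.29 for the interaction. The rRNA minus mRNA difference was -0.456 to -0.031, 0.0115 to 0.193, -0.309 to 0.116, -0.552 to -0.333 and -0.558 to -0.133 in the same order. Of 22 single results called in any setting, quantile normalization reversed 2 for LPS in WT, mt-Cytb to -0.0984 and mt-Nd1 to -0.0607, the second of which lost its call, and ended 10 other calls; the cause was not tested. Leaving out a sample leaves 1 in its group, which is assumed to vary like the others. With 2 samples a group and no counts, small differences in single transcripts cannot be resolved.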
